A study of Mus musculus with 6 samples.

Results

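The genes described here are 43 members of the machinery that repairs DNA and halts the cell cycle while DNA is damaged, chosen by name across 6 pathways: homologous recombination, Fanconi anaemia, end joining, mismatch repair, excision repair and checkpoint signalling. Of the 43, 42 had a probe set assigned to that gene alone, out of 18193 such genes on the array, and Xrcc2 was not analysed here. Where several probe sets named a gene, the brightest by mean log2(signal + 16) stood for it. Signals came from 6 Affymetrix arrays, which measure RNA by hybridization to short oligonucleotide probes. The arrays held RNA of mouse embryonic fibroblasts (MEFs), connective tissue cells cultured from embryos, of the C57BL/6 strain at 14 days of gestation and pooled from male and female, grown with 10% heat-inactivated fetal bovine serum. A group of 3 arrays, WT, was of wild-type cells, and a group of 3, DKO, of cells labelled as knockouts of both Abl kinase genes, c-abl (Abl1) and arg (Abl2). The sources used here do not say how the knockout was made, at which passage the cells were, or whether a group's 3 arrays hold different cultures, so the p-values cover array-to-array spread alone, which may be technical.

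Cells mend broken DNA by several routes. Homologous recombination copies an intact sister chromatid and so works in S and G2 phase, end joining ligates broken ends directly, the Fanconi pathway unhooks crosslinked strands, mismatch repair corrects replication errors, and excision repair removes damaged bases or short stretches of a strand. Breaks and stalled replication forks are sensed by the kinases ATM and ATR, which signal through CHK2 and CHK1 to stop the cycle. The c-Abl kinase is itself activated through ATM and DNA-PK after irradiation and phosphorylates repair proteins, RAD52 among them. Many repair genes are transcribed under E2F factors as cells enter S phase, so their RNA is known to follow the share of dividing cells.

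Some facts of the arrays bear on every value below. Pearson correlations across genes were at least 0.998 within a group and at most 0.905 between groups. The brightest Abl1 probe set had a mean signal of 184.8 in WT and 169.8 in DKO (limma adjusted p = 0.0929), and that of Abl2 had 256.1 and 254.2 (limma adjusted p = 0.874), so the arrays do not show the labelled knockout, though where these probes lie relative to the deleted parts was not analysed here, and every direction below is that of the arrays labelled knockout. Of 14 fibroblast markers, 9 rose and 2 fell, and their summed signal ran from 14549 to 15357 in WT and from 24880 to 25974 in DKO. Some of them moved more than any member. Mean signal went from 2284 in WT to 9.71 in DKO for Col1a2, from 1934 to 14.9 for Col3a1 and from 9.99 to 1789 for Pdgfra. Pdgfra was thus near the floor (below 15.6, the median over all probe sets) in WT. Col1a2 and Col3a1 were near it in DKO, and Thy1 and Lum in both groups. Sums over 10 leukocyte markers were 196.6 to 211.3 in WT and 563.8 to 604.5 in DKO, with Ptprc, Adgre1, Tyrobp, Itgam and Fcer1g near the floor in both and rises of Cd14 (99.9 to 400.8), Lyz2 (9.11 to 72.4) and Cd68 (19.3 to 41.0), and sums over 8 epithelial markers were 90.2 to 105.9 and 48.4 to 56.6. Endothelial markers summed to 49.1 to 59.8 and 44.4 to 52.0. The part of these differences in the results was not tested. The 3' over 5' signal of a control, on the log2 scale, is a sign of RNA quality. For beta-actin it was 0.44 to 0.50 in WT and 0.35 to 0.38 in DKO (exact permutation p = 0.1, two-sided, the smallest that 3 arrays against 3 allow). For Gapdh it was -0.19 to -0.11 in WT and -0.21 to -0.13 in DKO, which overlapped (exact permutation p = 0.6, two-sided). The part of RNA quality in the results was not tested either.

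Promoter sequences of the members were searched for short motifs. RefSeq promoters of 300 bases on GRCm38.p6, from 250 bases before to 50 after an annotated start, were at hand for 36 of the 42 members. An 8-base E2F motif (TTTCCCGC, TTTGGCGC, TTTCGCGC or TTTGCCGC, on either strand) stood in the promoters of 8 members, Bard1, Brca2, Chek2, Fancg, Mdc1, Msh3, Msh6 and Xrcc6. That was 20.5% of their 39 promoters, against 2.26% of all 32851 promoters and 3.20% of the 18009 promoters of genes on the array. Of the 36 members with a promoter, 27 fell in DKO, among them all 8, and 7 rose, none of them with a match. This split was not counted over all genes, and a link between the motif and the falls was not tested. The shorter cell cycle element CHR (TTTGAA or TTCGAA, either strand) stood in 7.69% of the members' promoters, 19.2% of all promoters and 15.1% of those of genes on the array. A CCAAT box, read on both strands, stood in 48.7%, 37.4% and 37.4%. CHR matches were found for 2 of the 27 members that fell and 1 of the 7 that rose, and CCAAT matches for 15 and 2. A match is a description of letters and not evidence of binding. The promoters below are those of the 3 members with the largest falls among the 8 with an E2F match, written from 5' to 3' along the gene, with the match in capitals: Brca2 at chr5:150522371-150522670, Msh6 at chr17:87974800-87975099 and Chek2 at chr5:110839733-110840032, each on the plus strand. In Msh6 the match lies just after the annotated start and reads along the gene, and in Brca2 and Chek2 it lies before the start and reads on the opposite strand.
Brca2: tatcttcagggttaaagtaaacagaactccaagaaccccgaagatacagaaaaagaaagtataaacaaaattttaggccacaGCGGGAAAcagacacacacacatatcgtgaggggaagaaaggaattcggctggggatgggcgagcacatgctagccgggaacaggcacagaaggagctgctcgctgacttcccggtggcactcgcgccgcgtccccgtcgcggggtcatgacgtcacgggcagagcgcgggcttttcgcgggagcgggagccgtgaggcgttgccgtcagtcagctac
Msh6: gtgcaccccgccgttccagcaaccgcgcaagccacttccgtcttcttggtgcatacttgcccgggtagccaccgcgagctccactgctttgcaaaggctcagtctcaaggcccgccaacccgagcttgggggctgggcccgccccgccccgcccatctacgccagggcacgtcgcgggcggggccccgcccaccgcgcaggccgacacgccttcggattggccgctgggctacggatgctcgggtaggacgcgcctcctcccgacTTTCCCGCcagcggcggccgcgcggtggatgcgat
Chek2: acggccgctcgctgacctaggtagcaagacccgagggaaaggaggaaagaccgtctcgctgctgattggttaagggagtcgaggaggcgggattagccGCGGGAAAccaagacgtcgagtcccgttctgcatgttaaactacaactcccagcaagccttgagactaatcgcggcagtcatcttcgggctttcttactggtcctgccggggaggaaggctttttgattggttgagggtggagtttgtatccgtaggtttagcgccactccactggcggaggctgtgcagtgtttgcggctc

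Most members were lower in DKO. Of the 42 measured, 33 fell and 7 rose at an adjusted p under 0.05 (limma, Benjamini-Hochberg over all 18193 genes), and 2, Rad52 and Fancc, did not pass. Over all genes 35.5% fell and 24.2% rose, together 59.7%, so a pass by itself says little here. These shares, and the 2-fold shares of all genes given next, are also the background of the pathway and list counts that follow. At least 2-fold falls, a difference in log2(signal + 16) of -1 or lower, were seen in 17 members against 8.77% of all genes. No member rose by 2-fold, against 7% of all genes. The offset of 16 lowers such counts here and below. In mean signal, Bard1, Fancg and Parp1 were also over 2-fold lower (2.365, 2.087 and 2.051 times). With arrays scaled on poly-A spikes, the 2-fold counts of members on the log2 scale were 10 falls and 4 rises. The 2-fold shares of all genes under that scaling were not computed. Rises made up 78.8% of the calls over all genes there, against 40.6% as deposited. The members' log2 differences (DKO minus WT, of log2(signal + 16)) had a median of -0.69, against -0.03 for all genes. The median was -0.09 for the 11239 genes brighter than the median of all probe sets, of which 45.9% fell and 35% rose. With all probe sets of a gene averaged, dim ones included, 31 members fell and 8 rose, with a median of -0.46. The groups did not overlap for 39 members, against 64.7% of all genes. In RNA of whole cultures, fewer cells that express a gene and less RNA per cell cannot be told apart.

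**Figure D1:**
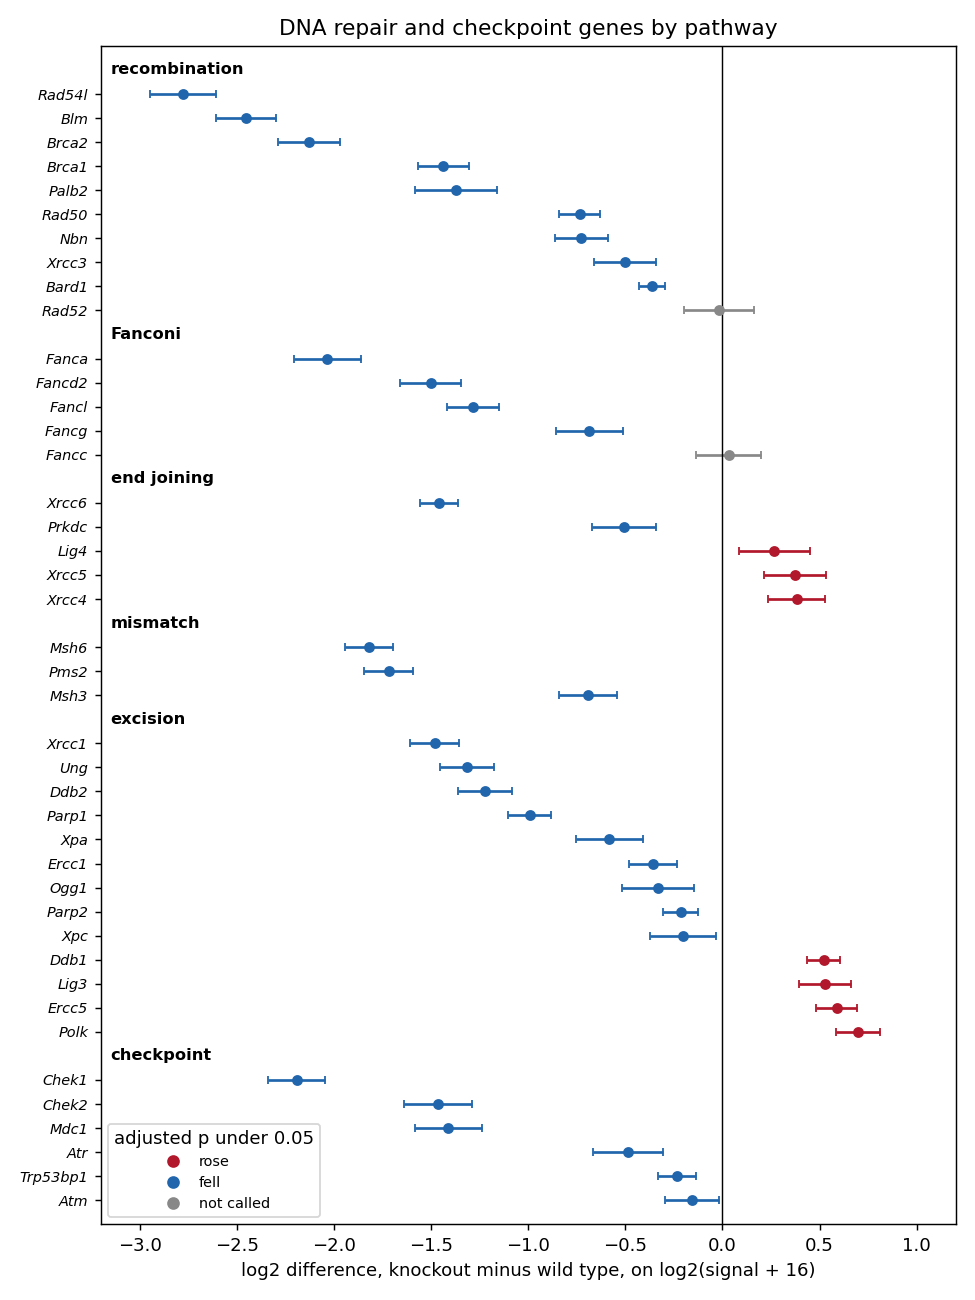
Differences between DKO and WT in log2(signal + 16) for the 42 measured members, in 6 pathways, with 95% intervals from the limma fit over 3 arrays per group; red rose, blue fell and grey did not pass an adjusted p of 0.05. Differences run from -2.78 for Rad54l to 0.70 for Polk, and the 7 rises lie in end joining and excision repair.

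Homologous recombination held the deepest falls of single members, those of Rad54l and Blm, though mismatch repair and Fanconi genes had lower medians. Recombination had 9 falls among 10 measured genes, 5 of at least 2-fold, no rise, and a median of -1.05. Rad54l, the motor protein that helps a broken strand find and open its template, gave signals of 286.7, 341.1 and 280.7 on the WT arrays and 30.1, 31.1 and 29.9 on the DKO arrays. The mean signal in WT was thus 9.98 times that in DKO, with a log2 difference of -2.78 ± 0.08 (SE, n = 3 arrays per group; limma adjusted p = 1.03e-11). All 3 DKO arrays lay within a narrow band far below the lowest WT array. Both other bright probe sets of Rad54l, with WT means of 105.1 and 80.7, were at -1.90 and -1.70, so the size of the fall depended on the probe set while its direction did not.

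Blm, the helicase that dissolves crossed-over intermediates, gave 288.7, 309.4 and 288.5 in WT and 45.4, 36.7 and 40.8 in DKO, a log2 difference of -2.45 ± 0.07 (SE; limma adjusted p = 1.29e-11). Brca2, which acts at the strand exchange step, had signals of 278.1, 296.4 and 265.3 in WT and 57.3, 46.1 and 51.8 in DKO (-2.13 ± 0.07). Neither gene had a DKO array near the WT range. Palb2, which links BRCA2 to BRCA1, gave 146.9, 125.1 and 136.1 against 52.1, 37.8 and 39.2 (-1.37 ± 0.10). Brca1, the ubiquitin ligase subunit that favours recombination over end joining, gave 613.5, 627.7 and 628.1 against 244.4, 217.4 and 200.7, a log2 difference of -1.44 ± 0.06. These 3 genes of a single complex all fell, and the other bright probe sets of Brca1 were at -1.16 and -1.11.

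The remaining recombination genes moved less on this scale. Rad50 and Nbn, partners in the complex that first binds broken ends, had mean signals of 333.5 in WT against 194.1 in DKO (-0.73 ± 0.05) and of 152.1 against 85.6 (-0.73 ± 0.06). The fall of Nbn was not seen relative to its chromosome: with each chromosome centred on the median of its bright genes, Nbn was at -0.08 (limma adjusted p = 0.263). Xrcc3, which acts in strand exchange, went from 32.0 to 17.8 (-0.50). Bard1, the partner of BRCA1 in its ligase, was below the median of all probe sets in both groups (10.0 against 4.24), where the log2(signal + 16) scale understates a change, and its difference was -0.36. Rad52, the strand annealing protein and a known c-Abl substrate, did not pass: its signals were 41.7, 32.6 and 33.3 in WT and 35.4, 34.3 and 35.4 in DKO, a difference of -0.02 with a 95% interval of -0.20 to 0.16 (limma adjusted p = 0.868).

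Of 19 further recombination genes on the array, 15 fell, 12 of them at least 2-fold, and Recql5 (0.58) was the only riser; the median was -1.28. Fignl1, an ATPase that takes part in recombination, was at -1.91, with mean signals of 697.6 in WT and 174.6 in DKO, and Rad54b, a relative of Rad54l, at -1.87, where its DKO mean of 4.11 was at the floor of the arrays.

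Among the Fanconi genes, 4 of 5 fell, 3 of them at least 2-fold, with a median of -1.28. Fanca, a scaffold of the core ubiquitin ligase complex, gave 159.9, 181.8 and 172.4 in WT and 33.3, 27.4 and 28.5 in DKO, a log2 difference of -2.03 ± 0.08 (SE; limma adjusted p = 2.03e-10). Fancl, the ligase subunit itself, gave 218.2, 224.6 and 222.8 against 75.6, 87.9 and 82.1 (-1.28 ± 0.06). Its substrate Fancd2 gave 77.9, 76.2 and 76.6 against 17.2, 15.5 and 17.8 (-1.50 ± 0.07). In each of the 3 the lowest WT array was above the highest DKO array by more than the spread within either group. Fancg, another core subunit, gave 43.7, 39.2 and 42.9 against 17.7, 19.0 and 23.6 (-0.69 ± 0.08), and its other probe set was at -0.71. Bright genes on its chromosome were at -0.65 relative to all bright genes, and Fancg was too dim to be centred. Fancc, also of the core, had the same value of 44.9 on all 3 WT arrays and 44.2, 50.7 and 44.0 in DKO, a difference of 0.03 with a 95% interval of -0.13 to 0.20 (limma adjusted p = 0.751). A dimmer probe set of Fancc, 23.4 in WT and 13.6 in DKO, fell by 0.42 on the log2 scale, so its probe sets disagreed. Fancc passed as a fall with probe sets averaged (-0.13, limma adjusted p = 0.0385) and as a rise with poly-A spike scaling (0.41). Among 8 other Fanconi genes 7 fell and none rose, led by Ube2t, the ubiquitin-conjugating enzyme that works with FANCL (-2.33 ± 0.06), Fanci, the partner of FANCD2 (-1.60), and the core subunit Fancb (-1.43).

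Mismatch repair had the lowest median of the 6 pathways, -1.72, over only 3 genes, all of which fell. Msh6, which takes part in recognising single mismatches, gave 519.6, 583.3 and 529.2 in WT and 151.7, 138.7 and 138.0 in DKO, a log2 difference of -1.82 ± 0.06 (SE; limma adjusted p = 2.73e-11). Pms2, an endonuclease subunit, gave 248.2, 230.9 and 241.3 against 62.7, 60.5 and 62.4 (-1.72 ± 0.06), and a dimmer probe set of it was at -0.81. Msh3, which takes part in recognising longer loops, moved less, with 144.6, 142.5 and 141.6 against 77.2, 90.7 and 79.8 (-0.69 ± 0.07). Its groups did not overlap either. Both other measured genes of the pathway also fell, Pms1 (-1.31) and Mlh3 (-1.07).

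**Figure D2:**
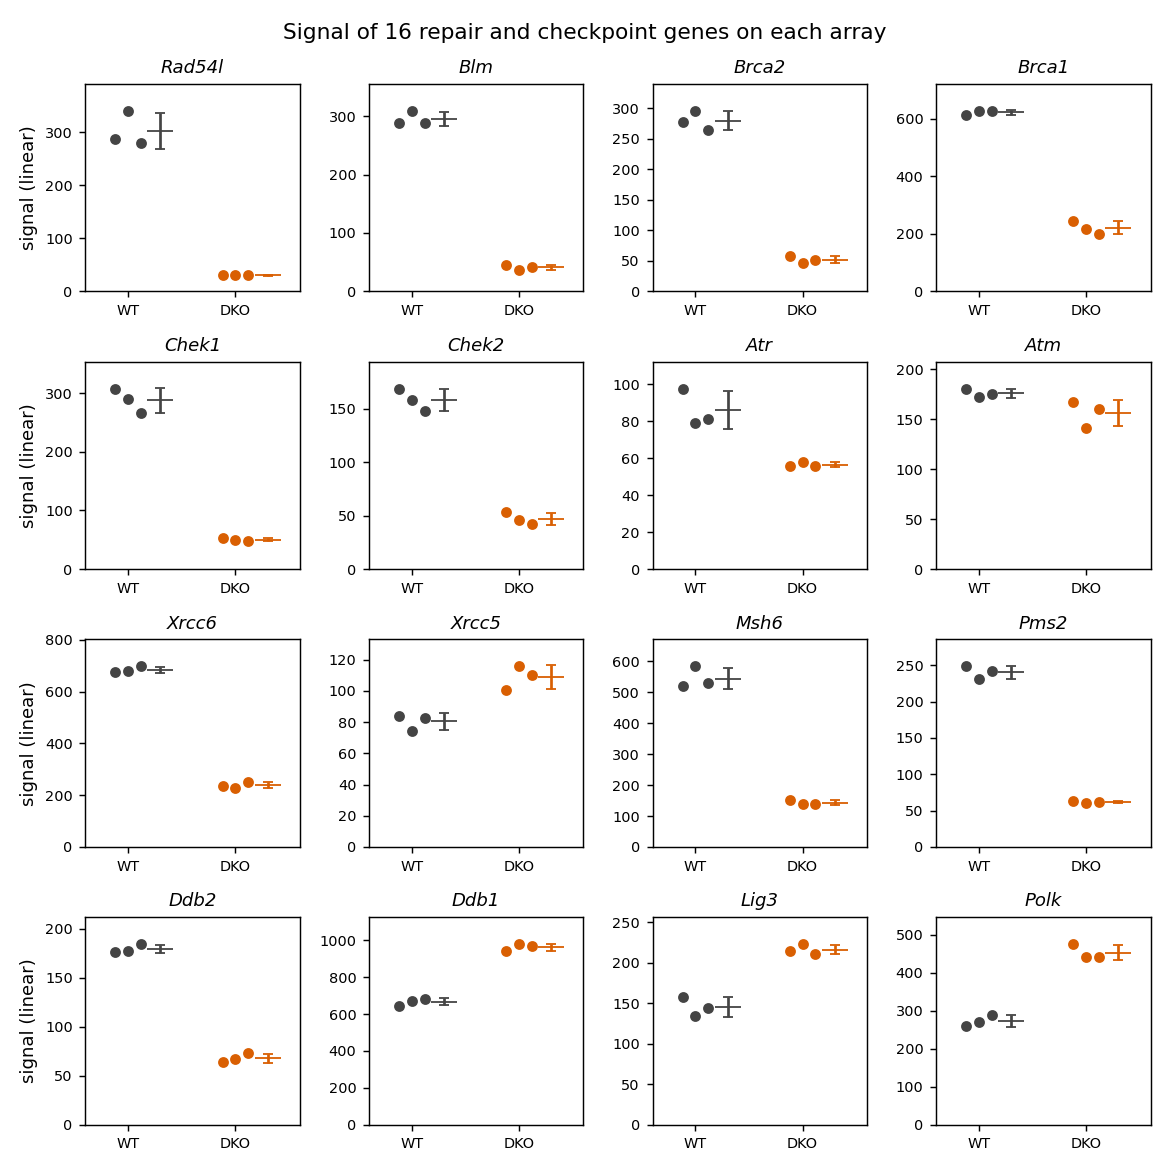
Deposited signal (linear intensity, axis from 0) of 16 members by array, where a point is an array and dashes with bars give the group mean and SD (n = 3). WT and DKO points are apart in all 16 panels, from a wide gap for Rad54l (means of 302.9 and 30.3) to a narrow one for Atm (175.7 and 156.1).

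Checkpoint genes fell as well, but by very different amounts. All 6 passed, 3 of them at least 2-fold, and the median was -0.95. Of all genes 35.5% fell, 8.77% by at least 2-fold. Chek1, which encodes the kinase CHK1 that restrains CDKs when replication stalls, gave 307.8, 290.6 and 265.5 in WT and 53.1, 50.2 and 48.1 in DKO, a log2 difference of -2.19 ± 0.07 (SE; limma adjusted p = 2.38e-11). A second bright probe set of Chek1 gave -2.16 and 2 dimmer ones -1.33 and -1.003. Chek2, for the kinase CHK2 downstream of ATM, gave 168.9, 157.9 and 148.0 against 53.3, 45.8 and 42.5 (-1.47 ± 0.08). Mdc1, the scaffold that binds marked chromatin beside breaks, gave 175.9, 186.1 and 175.0 against 49.2, 63.5 and 60.0 (-1.41 ± 0.08).

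The sensor kinases above them changed far less. Atr gave 97.7, 79.2 and 81.1 in WT and 55.6, 58.2 and 55.8 in DKO (-0.49 ± 0.08; limma adjusted p = 0.000215). Atm gave 180.5, 171.7 and 174.9 against 166.9, 141.4 and 160.1, a difference of -0.16 ± 0.06 whose limma adjusted p of 0.0484 was just under the threshold. Its groups did not overlap, though the gap between the nearest arrays was small, and leaving out any array except DKO replicate 1 raised the adjusted p above 0.05, to at most 0.208. A second bright probe set of Atm, with 104.6 in WT and 98.0 in DKO, did not pass (-0.08, limma adjusted p = 0.302). In that fit over all probe sets the brighter one did not pass either (limma adjusted p = 0.0539). Trp53bp1, for 53BP1, which favours end joining, gave 410.9, 417.8 and 413.7 against 347.4, 366.2 and 334.9 (-0.24 ± 0.04). Its probe sets disagreed: the next brightest was at -0.07 (limma adjusted p = 0.38) and 4 dim ones rose, among them one that went from 9.61 to 26.4 (0.73). With probe sets averaged, the direction of Trp53bp1 turned to 0.25. Of 17 other checkpoint genes 16 fell and 1, the clamp loader Rad17 (0.18), rose; Tipin (-2.40) and Clspn (-2.29), which protect stalled forks and help activate CHK1, fell most, followed by the phosphatase Cdc25b (-1.96).

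End joining was, as deposited, the only pathway of the 6 whose median was above 0, at 0.27, with 3 of 5 genes higher. Of all genes 24.2% rose and 35.5% fell. Xrcc6, which encodes the Ku70 subunit of the ring that holds broken ends, gave 677.9, 679.1 and 697.5 in WT and 237.1, 229.1 and 250.6 in DKO, a log2 difference of -1.46 ± 0.04 (SE; limma adjusted p = 2.32e-11). Xrcc5, for its partner Ku80, gave 84.1, 74.4 and 82.9 against 100.8, 115.7 and 110.3 (0.37 ± 0.07; limma adjusted p = 0.000703). The genes of an obligate heterodimer thus moved in opposite directions, each from a single bright probe set, without overlap between groups. Prkdc, the DNA-PK catalytic subunit that Ku recruits, gave 66.7, 73.4 and 66.3 against 40.9, 45.6 and 44.7 (-0.51 ± 0.08).

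Both genes of the ligation step were modestly higher. Xrcc4, the scaffold of the ligase, gave 70.4, 75.2 and 76.6 in WT and 97.8, 101.5 and 104.7 in DKO (0.38 ± 0.07), and Lig4, the ligase, 49.9, 52.7 and 42.3 against 59.2, 64.8 and 59.9 (0.27 ± 0.08; limma adjusted p = 0.0148). A second Xrcc4 probe set, with 66.2 in WT and 73.5 in DKO, did not pass (0.12, limma adjusted p = 0.307). Xrcc4 was too dim to be centred by chromosome, and bright genes on its chromosome were at 0.42 relative to all bright genes. These 3 rises were lost with arrays scaled on hybridization spikes, where Xrcc4, Xrcc5 and Lig4 were at 0.16, 0.15 and 0.06 (limma adjusted p = 0.0873, 0.114 and 0.572), and that of Lig4 was also lost without DKO replicate 2 (limma adjusted p = 0.0553) or without WT replicate 3 (0.0692). Among 5 other end-joining genes, Polm, a gap-filling polymerase, rose from 52.3 to 213.3 (1.75 ± 0.08), while the other 4 fell, Aplf by 1.21 and Poll by 0.53 on the log2 scale.

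Excision repair was mixed. It had 9 falls, 3 of at least 2-fold, and 4 rises among 13 genes. Of all genes 35.5% fell, 8.77% by at least 2-fold, and 24.2% rose, so falls beside rises are no trait of this pathway. The median of the 13 was -0.33. That median depended on the setting, from -0.51 with hybridization spikes to 0.14 with poly-A spikes. In base excision and single-strand break repair, Xrcc1, the scaffold of that route, gave 338.6, 315.7 and 347.2 in WT and 115.3, 103.1 and 109.7 in DKO, a log2 difference of -1.48 ± 0.06 (SE; limma adjusted p = 2.06e-10). Ung, the glycosylase that removes uracil from DNA, gave 159.9, 156.9 and 162.2 against 54.1, 57.5 and 52.7 (-1.31 ± 0.06). Parp1, which marks strand breaks with poly(ADP-ribose), gave 487.1, 521.0 and 497.5 against 257.7, 229.8 and 246.7 (-0.99 ± 0.05), and its 2 other bright probe sets were at -0.98 and -1.05. Lig3, the ligase that XRCC1 holds, went the other way, with 157.9, 134.4 and 144.4 against 215.1, 222.9 and 211.5 (0.53 ± 0.06; limma adjusted p = 7.18e-06). The second bright probe set of Lig3 was at 0.74, so the scaffold and its ligase differed in direction on every probe set brighter than 50 in either group; a dim probe set of Lig3 fell, from 12.8 to 9.56. Parp2 and the oxidised guanine glycosylase Ogg1 had small falls of 0.22 and 0.33 on the log2 scale.

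In nucleotide excision repair the same kind of split ran through a damage sensor. Ddb2, the subunit that recognises ultraviolet lesions in chromatin, gave 176.7, 177.3 and 184.0 in WT and 63.9, 66.7 and 72.7 in DKO, a log2 difference of -1.22 ± 0.06 (SE; limma adjusted p = 3.34e-09), and its second probe set was at -1.13. Ddb1, its partner and the adaptor of CUL4 ubiquitin ligases, gave 645.8, 670.1 and 681.7 against 941.1, 977.1 and 969.4 (0.52 ± 0.04; limma adjusted p = 1.03e-07). No array of either group came close to the other group for Ddb1 or Ddb2. Ercc5, the XPG nuclease that cuts 3' of the lesion, gave 199.3, 196.1 and 202.0 against 324.1, 296.7 and 302.1 (0.59 ± 0.05), while Ercc1, of the nuclease that cuts 5' of it, went from 356.5 to 275.7 (-0.36). Xpa, which verifies damage, was at -0.58 ± 0.08, but at 0.06 with chromosomes centred and -0.08 with probe sets averaged (limma adjusted p = 0.509 and 0.165). Xpc, which opens the helix at lesions, had overlapping groups, 130.9, 131.7 and 119.8 against 98.3, 105.7 and 122.9, and its difference of -0.20 (limma adjusted p = 0.0402) was lost without DKO replicate 1 (-0.14, limma adjusted p = 0.152), without DKO replicate 2 (adjusted p = 0.107) and without WT replicate 1 or 2 (0.11 and 0.123), with chromosomes centred (0.967), without a variance trend (0.0561) and with an offset of 64 (0.0566).

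Polk, a translesion polymerase that also fills excision gaps, had the highest difference of all members, 0.70 ± 0.05, with 259.6, 269.7 and 289.3 in WT and 474.5, 442.1 and 441.5 in DKO (limma adjusted p = 8.73e-08). Its second probe set gave 0.66. The median difference of the bright genes on its chromosome was 0.42 above that of all bright genes, and with chromosomes centred Polk was at 0.28 (limma adjusted p = 0.000439). Among 27 other excision and translesion genes 17 fell, 8 at least 2-fold, and 6 rose. Lig1, the replicative ligase (-2.47 ± 0.04), and Alkbh2, which reverses alkylated bases (-2.37), fell most, whereas Rev3l, the catalytic subunit of translesion polymerase zeta, gave 289.7, 287.3 and 270.5 against 1333, 1441 and 1247 (2.18 ± 0.05).

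Lists of other genes put these values beside the rest of the cell cycle. Proliferation genes had 35 falls among 36 measured, 31 of at least 2-fold, a median of -1.71 and a summed signal of 46595 to 47673 in WT and 14667 to 16596 in DKO; the lowest were Ccnb2 (-3.26), Aurkb (-2.84) and Cdc45 (-2.72), and Tyms, near the floor in both groups, did not pass. The part of this shift in the members' falls was not tested. All 78 other measured repair and checkpoint genes together had 61 falls, 9 rises and a median of -0.69. Targets of p53 had 17 rises and 4 falls among 24 measured and a median of 0.70, led by Ccng1 (2.34), Zmat3 (2.12) and Mdm2 (1.95). The list holds 3 of the members, which did not move together: Polk rose, whereas Ddb2 and Xpc, whose control by p53 is known from human cells, fell.

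**Figure D3:**
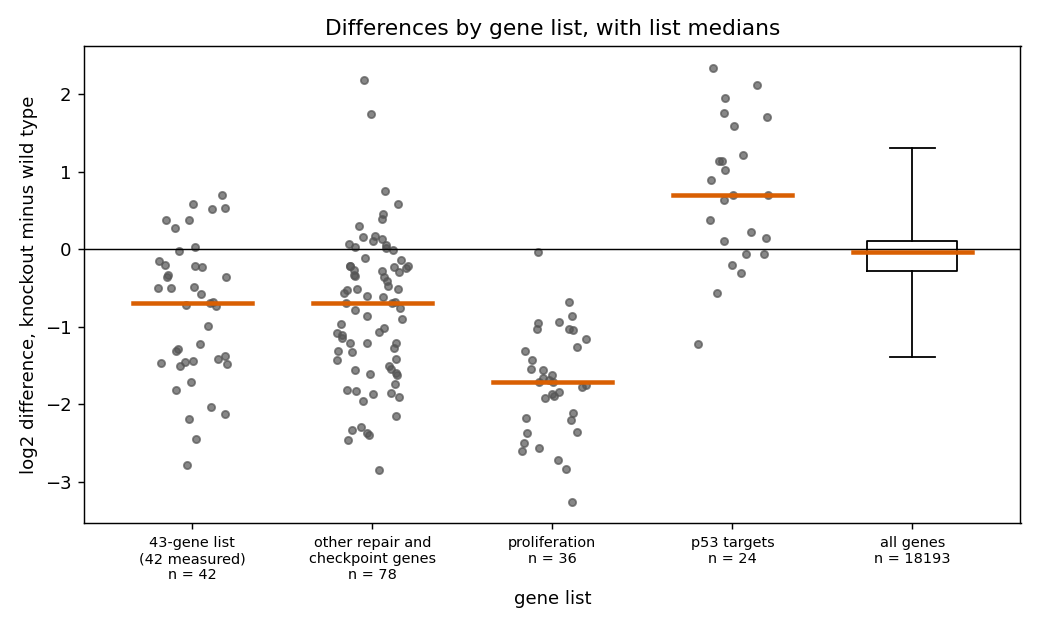
Log2 difference (knockout minus wild type) of each gene of 4 lists, as points, and of all 18193 genes, as a box of the quartiles with whiskers at the 5th and 95th percentiles; orange bars are medians. The medians are -0.69 for the members and for the 78 other repair and checkpoint genes, -1.71 for proliferation, 0.70 for p53 targets and -0.03 for all genes.

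The scaling of the arrays set the level against which small differences were read. Poly-A spikes, RNA added before labelling, differed between DKO and WT by -0.52 on the log2 scale, and hybridization spikes, added before hybridization, by 0.26 (exact permutation p = 0.1 each, two-sided, the smallest possible). Scaling on them moved the median of all genes from -0.03 to 0.12 and -0.12. The members' median was -0.24 with poly-A spikes, where 23 fell and 13 rose, and -0.89 with hybridization spikes, where 33 fell and 4 rose. Under the deposited, quantile, median and both spike scalings alike, 23 members fell and 4 rose, the latter Lig3, Ercc5, Ddb1 and Polk. The same count over all genes was not made, so these counts have no background. The 23 were Brca1, Brca2, Bard1, Palb2, Rad54l, Rad50, Nbn, Blm, Fanca, Fancd2, Fancg, Fancl, Xrcc6, Msh3, Msh6, Pms2, Xrcc1, Parp1, Ung, Ddb2, Chek1, Chek2 and Mdc1. With poly-A spikes Atm, Trp53bp1, Parp2 and Xpc turned to rises of 0.31, 0.26, 0.28 and 0.25, Rad52 and Fancc passed as rises of 0.34 and 0.41 (limma adjusted p = 0.00504 and 0.000943), and Ogg1 and Ercc1 to 0.03 and 0.14.

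**Figure D4:**
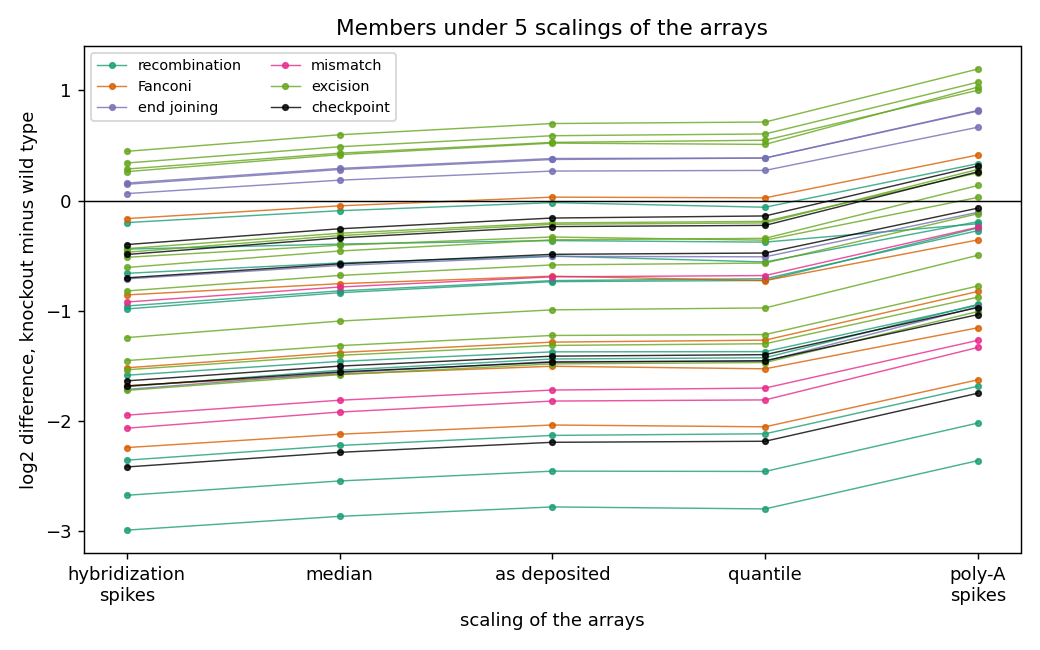
Log2 difference (knockout minus wild type) of each of the 42 measured members under 5 scalings of the arrays, a line per gene coloured by pathway. Lines run nearly parallel for bright genes and are flatter for dim ones such as Bard1. The median goes from -0.89 with hybridization spikes to -0.69 as deposited and -0.24 with poly-A spikes.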

How the data were processed

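The values are the deposited linear intensities, one per probe set and array, which per the labels came from biotin-labelled cRNA made from 6 µg of total RNA. The submitters' processing notes name MAS5 as the authors' tool, and nothing further on version or scaling was found in the labels. Titles gave groups and replicate numbers. Of 45101 probe sets, 34945 had 1 gene symbol in the platform annotation; 64 controls, 932 probe sets with several symbols and 9160 unnamed here were left out of the gene tests. Of the 34945, 34741 matched RefSeq GRCm38.p6 by Entrez number, used for names, shared chromosomes and promoters.

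Signals were transformed as log2(signal + 16). The brightest single-gene probe set by mean log2 value stood for each of 18193 genes. The difference DKO minus WT was fitted in R 4.3.3 by limma 3.58.1 (lmFit and eBayes, trend on; two-sided), and p-values were adjusted by Benjamini-Hochberg across the 18193 genes; probe sets were tested in a fit over all of them. Genes passed at an adjusted p under 0.05. The floor means a signal below 15.6, the median over all probe sets. No detection calls were used, and the number of arrays limits the precision. Genes named were, per pathway, up to 5 members with the largest differences without overlap, those opposite to the pathway's median, those that did not pass, and up to 3 per list of other genes, of which 1 recombination gene is not reported here; further members are given so that all are accounted for. The members and lists were chosen with earlier results of these data known. The fit was tested on simulated data. Alternatives were other offsets (1 and 64), scalings, probe set rules, variance models, a replicate block, array weights, chromosome centring (genes with a mean log2 value above 7, on chromosomes with at least 20 of them) and each array left out. Figures were drawn with matplotlib 3.10.9.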

Additional observations from a re-analysis of the deposited data

How the results depend on the processing

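Over 20 alternatives, 22 members fell and 4 rose under every one that gave a value, the 23 and 4 above without Nbn. How many of all genes kept their call in this way was not counted, so here too a background is missing. Chromosome centring moved only 22 of the 42 members, the bright ones, among them 11 of these 22 falls and all 4 rises, so for the other 11 falls, Fancg included, it was no check. Scaling changed the counts most: 13 members rose with poly-A spikes and 4 with hybridization spikes, where 6 rose with median centring and 7 as deposited. Over all genes 10435 rose and 2809 fell with poly-A spikes and 10722 fell with hybridization spikes, against 4411 and 6455 as deposited; rises made up 78.8%, 22.1%, 32.1% (median centring) and 40.6% (as deposited) of the calls. A spike reference multiplies every signal of its array by the same factor. Because the offset is added afterwards, dim genes move less on the log2 scale. From deposited to poly-A spike scaling, Brca1 went from -1.44 to -0.94, and Bard1, near the floor, from -0.36 to -0.21. The error of the spike reference itself is not in these p-values. The members' median of -0.69 was -0.77 with median centring, -0.89 with hybridization spikes, -0.24 with poly-A spikes, -0.81 and -0.47 with offsets of 1 and 64, -0.46 with probe sets averaged and -0.51 without x, s and a probe sets, which left 37 members. Leaving out each array in turn gave medians of -0.71 to -0.64, 31 to 32 falls and 6 to 7 rises. Values that turned sign with poly-A spikes were the excision median (0.14), Rad52 (0.34), Parp2 (0.28), Ogg1 (0.029), Ercc1 (0.14), Xpc (0.25), Atm (0.31) and Trp53bp1 (0.26); Rad52 also did so without WT replicate 1 (0.0615, with a range of -0.0632 to 0.0615 over arrays left out), and Trp53bp1 with probe sets averaged (0.25). Fancc was at -0.0475 with median centring, -0.16 with hybridization spikes, -0.13 with probe sets averaged, where it passed as a fall, and -0.0184 without DKO replicate 2 (range -0.0184 to 0.0575), and passed as a rise with poly-A spikes (0.41), as did Rad52. With chromosomes centred, Xpc was at 0.0044 and Xpa at 0.063, Lig3 at 0.31 and Ercc1 at -0.20. Averaging brings in dim probe sets, and took Brca1 to -0.93, Rad54l to -1.61, Fanca to -1.16, Fancd2 to -0.64, Xrcc6 to -0.73, Msh3 to -0.21, Lig3 to 0.26, Rad50 to -0.37, Fancl to -0.64, Pms2 to -0.92, Chek1 to -1.35, Atr to -0.18, Xrcc4 to 0.25, Ercc1 to -0.22 and Ercc5 to 0.35. Calls were also lost with poly-A spikes for Xrcc3, Prkdc, Xpa and Atr, with median centring for Lig4, without a trend (adjusted p 0.0561) and with an offset of 64 (0.0566) for Xpc, and without x, s and a probe sets for Trp53bp1. Atm lost its call with quantile normalization, probe sets averaged, an offset of 64, no trend and chromosomes centred, with adjusted p between 0.0526 and 0.1. The excision median was -0.20 with chromosomes centred, -0.19 with an offset of 64, -0.21 with probe sets averaged, -0.21 without x, s and a probe sets and -0.51 with hybridization spikes. The cause of these changes was not tested. With the replicate number as a block, 33 members fell and 7 rose, with a median of -0.69, and no member's call changed; over all genes 4458 rose and 6477 fell. Deviations of same-numbered arrays correlated at 0.04, 0.11 and 0.17, not all over 0.1, so the numbers were not taken to pair the arrays, though each WT array correlated best with the DKO array of its number.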

Other observations

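Between 137 and 524 probe sets held exactly the same value on any pair of the 6 arrays, over 15 pairs, in pairs across the groups as well as within them. In all, 4128 probe sets (9.15%) had an identical value on at least 2 arrays, 31 on all 3 WT arrays and 24 on all 3 DKO arrays. Among the members these were Rad52, Xrcc3, Fancc and Ogg1. How such values arose is not given in the sources used here. For Fancc, whose WT arrays all read 44.9, the spread within WT is therefore no estimate of error.

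Bright genes also differed by chromosome. Relative to the median of all bright genes, the median of bright genes was -0.65 on the chromosome that carries Rad54l, Nbn, Fancg and Xpa, 0.54 on that of Parp2 and 0.42 on that of Msh3, Xrcc4, Fancc and Polk. Fancg (-0.69), Rad54l, Msh3, Xrcc4 (0.38) and Fancc were too dim to be centred. With chromosomes centred, Parp2 was at -0.76 in place of -0.22.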
